A study of Oryctolagus cuniculus with 6 samples.

Results

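FABP5 and LPL are lipid-handling genes that were measured here in rabbit basilar artery smooth muscle cells by one-colour microarray. The probes carried 10007 gene symbols in all, and these 2 genes were taken as every non-control probe whose gene name or description in the array files named fatty acid binding protein 5 or lipoprotein lipase, which gave 6 of 43603 probes, 5 for FABP5 and 1 for LPL. The pair had been chosen because their signal differed between the groups, so their values are given as a description, without a test. Both groups were female New Zealand White rabbits. In the ligated group (3 arrays) both common carotid arteries were tied off to increase vascular flow, and in the sham group (3 arrays) they were exposed but not tied. Basilar arteries were taken on day 5, perfused with elastase and collagenase for 45 min and triturated to free smooth muscle cells. The labels gave 3 rabbits per group and did not say that each array was 1 rabbit, so the spread between arrays may be partly technical.

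Lipoprotein lipase is a secreted enzyme that is held on heparan sulfate and on the endothelial surface, where it frees fatty acids from the triglyceride of circulating lipoproteins. It is made by adipocytes, striated muscle and macrophages, and in diseased arteries it has been found in macrophages and smooth muscle cells. FABP5, the epidermal fatty acid binding protein, is a small cytosolic carrier that takes up fatty acids inside the cell and can deliver them to the nuclear receptor PPARD. The labels of this study did not mention lipid, and the array comparison asked which transcripts differed after the rise in flow.

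The probes are 60 bases long, and their sequences are shown because they decide what each signal can measure. The 5 FABP5 probes lay on chromosome 3 of the oryCun2 rabbit assembly (positions 96999002 to 96999402 over all 5), and each spanned 395 bases of genome, so that its letters were split by a gap. They began at bases 266 to 272 of one transcript model and shared a core of 54 bases, printed in capitals for the first and the last of them. They are therefore repeated readings of one stretch of FABP5 and not independent measurements.
A_04_P079836: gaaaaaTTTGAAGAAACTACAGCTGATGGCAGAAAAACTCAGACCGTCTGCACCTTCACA
A_04_P079832: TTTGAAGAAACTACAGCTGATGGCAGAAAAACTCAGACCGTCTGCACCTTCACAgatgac

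The LPL probe began at base 1382 of the RefSeq messenger RNA for a lipoprotein lipase-like protein and lay at chr15:4570223-4574051, its letters split over 3829 bases of genome. An unnamed probe of the opposite strand lay inside that interval, at chr15:4573990-4574044. The capitals mark the run of 53 bases over which the pair are reverse complements.
A_04_P068842: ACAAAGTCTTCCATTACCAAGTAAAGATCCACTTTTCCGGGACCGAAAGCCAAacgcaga
A_04_P028186: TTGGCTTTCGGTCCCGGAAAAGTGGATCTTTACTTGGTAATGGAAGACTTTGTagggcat

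No FABP5 probe shared more than 14 bases with any probe outside the FABP5 set, whichever strand was read. For the LPL probe, the longest shared run was that with its opposite-strand partner.

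The arrays were similar in overall brightness. The 75th percentile of the processed signal, which was set to 0 on the log2 scale of each array, was 207 to 224 units on sham and 157 to 251 on ligated arrays, and 58.7% to 63.7% of probes were well above background. Each slide held a single group, all sham arrays on the first and all ligated arrays on the second, and the effect of slide and that of ligation cannot be told apart. Sham 2 and sham 3 were the most alike of all pairs, with an SD of 0.30 log2 over the differences of 23435 probes, against 0.55 to 1.07 for the remaining pairs. Values with these arrays averaged or left out are given for the pair and for counts of called genes. For named lipid genes that were called, the number of settings that lost the call is given. Smooth muscle markers were present: all 11 measured contractile genes were tested, with MYLK and TAGLN the strongest.

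FABP5 was present on every array and was far higher after ligation. The processed signal of the probe that stood for the gene, A_04_P079832, was 159, 85.6 and 117 units on sham 1 to 3 and 1236, 1675 and 1134 units on ligated 1 to 3. On the normalised log2 scale these were -0.48, -1.28 and -0.93 against 2.77, 2.74 and 2.85. The groups did not overlap, the gap between the highest sham and the lowest ligated array was 3.22, and the ligated arrays lay closer together than the sham arrays. The mean level was -0.90 ± 0.40 (SD, n = 3) in sham and 2.79 ± 0.06 (SD, n = 3) in ligated cells, a difference of 3.68 ± 0.24 (SE of the limma fit) or 12.8-fold. Without sham 2 the difference was 3.49 and without sham 1 it was 3.89.

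The remaining 4 FABP5 probes gave the same picture. All 5 were well above background on all 6 arrays, between -1.49 and -0.48 in sham and between 2.18 and 2.85 in ligated cells. Their differences ran from 3.51 for A_04_P079836 to 3.75 for A_04_P079835, a range of 0.24. On all 5 probes sham 1 was the highest sham array, while the lowest was sham 2 on some probes and sham 3 on others. The probes followed each other over the 6 arrays with a Pearson r of at least 0.997, a description of readings that share their sequence, their arrays and the group difference.

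LPL was at or near the background in sham cells and measurable on every ligated array. Its processed signal was 14.7, 5.87 and 9.83 units on sham 1 to 3, of which only sham 3 was well above background. It was 270, 256 and 191 units on ligated 1 to 3, all well above background. The groups did not overlap, with a gap of 3.95 on the normalised log2 scale between the highest sham and the lowest ligated array.

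The normalised log2 values of LPL were -3.92, -5.14 and -4.51 in sham and 0.58, 0.03 and 0.28 in ligated cells. The mean was -4.52 ± 0.61 (SD, n = 3) against 0.29 ± 0.28 (SD, n = 3), a difference of 4.82 ± 0.34 (SE of the limma fit) or 28.2-fold. The sham mean rests on signals that only 1 of 3 arrays measured above background. Dim sham arrays under the lowest signal that was well above background on the same array were also raised to that signal. The difference was then 4.47, or 22.2-fold. It is not a lower limit, because the normexp background corrections described further down gave smaller differences (1.41 and 2.09). The raw spot signals, before Agilent's background step, were 56.0 to 64.5 units in sham and 236 to 317 in ligated cells over a local background of 28 to 35. The groups did not overlap on that raw scale either.

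**Figure D1:**
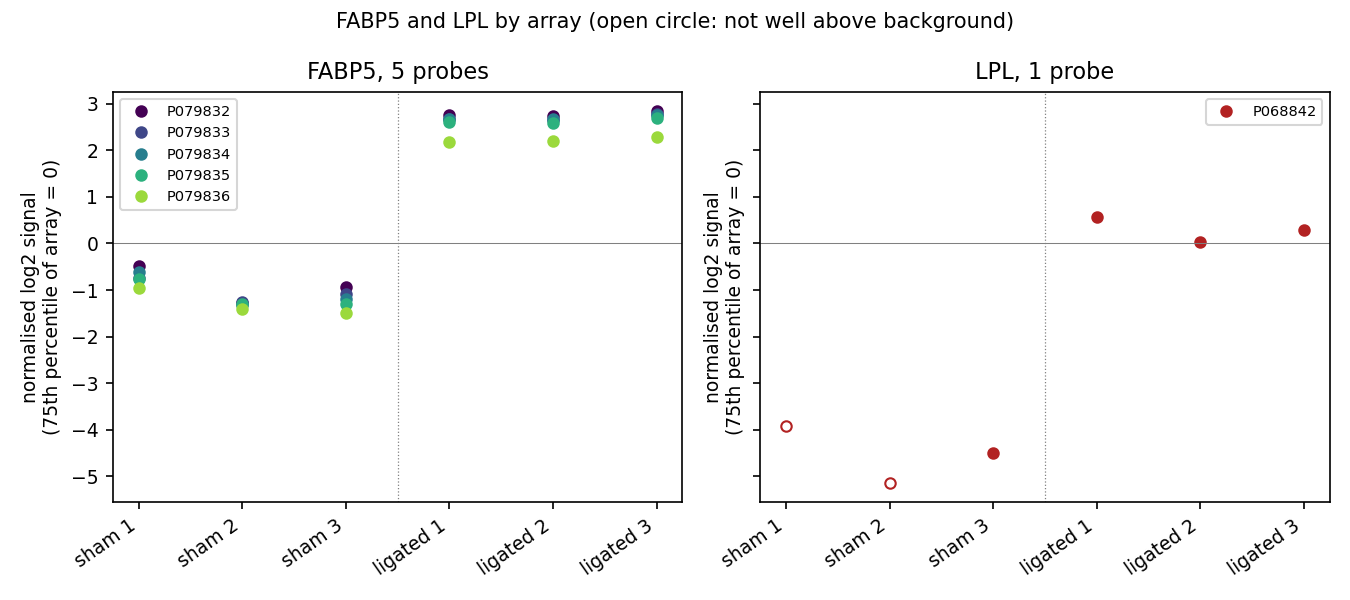
Normalised log2 signal (75th percentile of each array = 0) of the 5 FABP5 probes and the LPL probe on each sham and ligated array, 1 point per probe and array; filled circles are well above background and open circles are not. The FABP5 probes lie between -1.49 and -0.48 in sham and between 2.18 and 2.85 in ligated cells, and LPL is filled on 1 sham and 3 ligated arrays.

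All 6 probes were called higher by limma and all 6 had groups that did not overlap. Across all 27410 tested probes (well above background on at least 3 of 6 arrays) 5.71% were called higher at an adjusted p of 0.05 and 17.6% had every ligated array above every sham array. Since the pair was chosen on this contrast, nothing is read from these counts.

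The size depended on how background was removed, and on little else that was tried. With quantile normalisation, median centring, the deposited value table, array weights, a replicate or scan-day term, or sham 2 and sham 3 averaged, FABP5 lay between 3.48 and 3.86 and LPL between 4.62 and 5.04. With normexp background correction, which adds an offset of 50 units to every signal, the difference was 2.26 for FABP5 and 1.41 for LPL. With normexp after leaving out spots whose local background exceeded 10 times the array median, it was 3.08 for FABP5 and 2.09 for LPL. Both genes stayed higher in ligated cells in each of these settings.

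**Figure D2:**
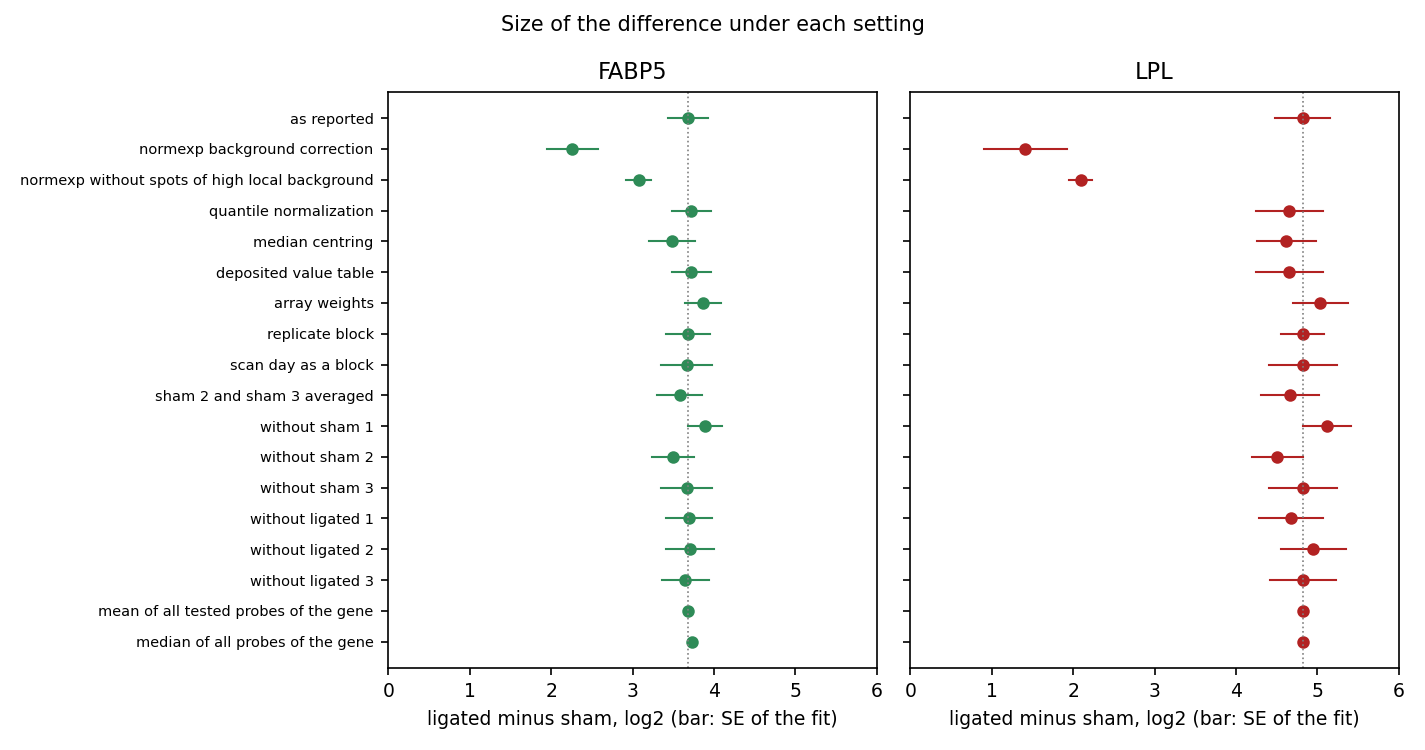
Difference between ligated and sham cells (log2, horizontal axis) for FABP5 and LPL under each processing setting, with the SE of the limma fit as a bar where the fit gives one and the reported value as a dotted line. Both normexp settings lie below the rest, at 2.26 and 3.08 for FABP5 and at 1.41 and 2.09 for LPL.

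Probes of the opposite strand at both loci also carried signal in ligated cells. Beside the FABP5 probes, unnamed probes lay at chr3:96996426-96998894 and chr3:96998886-96998945, shown here as printed on the array because neither has a gene name. They were not set against the exons of FABP5, so whether they lie inside the gene was not tested.
A_04_P011016: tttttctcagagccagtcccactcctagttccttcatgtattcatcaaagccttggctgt
A_04_P011017: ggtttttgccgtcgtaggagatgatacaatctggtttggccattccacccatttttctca

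A_04_P011016, whose letters were split over 2469 bases of genome, read 13.8, 10.69 and 5.31 units in sham and 74.5, 65.1 and 46.0 units in ligated cells. A_04_P011017 read 3.59, 3.57 and 2.50 units against 60.9, 68.1 and 32.8. The opposite-strand probe at LPL read 4.01, 2.69 and 1.88 units against 44.0, 24.7 and 11.8. None of the 3 was well above background on any sham array and all were on every ligated array. Sham arrays below the lowest signal that was well above background on the same array were raised to that signal. Against these, the ligated means were 5.93-fold, 5.07-fold and 2.31-fold higher. With the values as measured, the limma adjusted p was 0.0111, 0.00155 and 0.0147. The 3 probes entered the test only through the ligated arrays, where they are bright, so these p-values do not add support to the signals. With normexp correction, where 0 probes of the whole array were called, none of the 3 passed (limma adjusted p = 0.789 for each). Their differences there were 0.82, 0.91 and 0.86. With normexp without spots of high local background all 3 passed (limma adjusted p = 0.0138, 0.00720 and 0.0355). The probe at LPL also missed the threshold without sham 2 (limma adjusted p = 0.0591), sham 3 (0.0628) or ligated 2 (0.0546), and with sham 2 and sham 3 averaged (0.0574). These probes were looked up because they lie beside or over the probes of the pair. Whether they read separate transcripts of the other strand was not tested. The other 4 opposite-strand probes within 5000 bases of the FABP5 probes, from one expressed sequence tag at chr3:97001757-97001939, showed no such pattern. They were above background on at most 1 array per group.

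**Figure D3:**
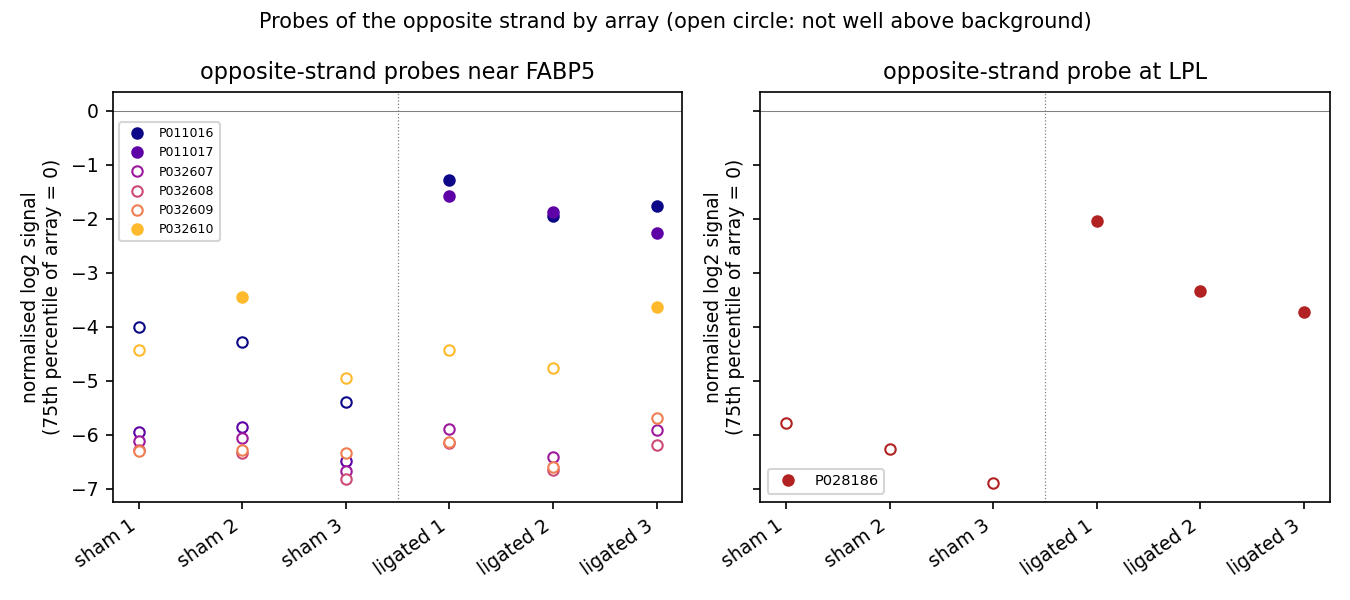
Normalised log2 signal by array of the 6 opposite-strand probes within 5000 bases of the FABP5 probes and the 1 at LPL; filled circles are well above background. A_04_P011016, A_04_P011017 and A_04_P028186 are filled on the 3 ligated arrays and open on the 3 sham arrays, and the 4 expressed-tag probes are mostly open on both sides.

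Of the other genes that carry the FABP name, and PMP2, only FABP3 was above background on more than 1 array. FABP3, the heart-type carrier, read 393, 201 and 261 units in sham and 147, 271 and 166 in ligated cells, with overlapping groups and a difference of -0.37 ± 0.28 (limma adjusted p = 0.422). The 5 probes of FABP4, the adipocyte carrier whose gene lies near FABP5 on chromosome 3, were above background on no sham array and in 4 ligated readings, all on 1 array, and its highest reading was 19.0 units. FABP9 and FABP12, also near FABP5, and FABP1, FABP2 and FABP6 were above background on no array. Of the 36 readings of PMP2, the myelin member, 1 was above background, on a sham array. Among the relatives of LPL, hepatic lipase (LIPC) and endothelial lipase (LIPG) were above background on no array.

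The wider lipid pathway was counted over 8 lists with 197 genes, of which 101 could be tested. In limma 10 of them (9.9%) rose, against 6.2% of all 7562 named genes, each represented by its brightest tested probe, and 0 fell, against 2.68%, with 37 at an unadjusted p under 0.05 in either direction. The count of 0 that fell was not stable: 7 fell and 21 rose with array weights, 5 fell and 11 rose with normexp without spots of high local background, and 3 fell with trend and robust variances and without ligated 3. The median difference was 0.11, beside 0.01 for all named genes. The calls changed when arrays were left out. CRABP1 alone was called without sham 2, without sham 3 or with both averaged. CRABP1 and G0S2 were called without ligated 2, and those with PLTP without ligated 1. Without sham 1 the count was 10 and without ligated 3 it was 13. Called probes of the whole array fell too, from 2290 to 595 without sham 2, 552 without sham 3, 1205 without ligated 1 and 752 without ligated 2. Whether single arrays carried the lipid calls was not tested. With normexp correction 0 were called in limma, with 5 at an unadjusted p under 0.05.

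Among the partners and regulators of LPL, 1 of 3 tested genes rose. ANGPTL4, a secreted inhibitor that unfolds the lipase, was at -0.92, -2.12 and -2.29 in sham and 0.73, 0.37 and 0.74 in ligated cells, a difference of 2.39 ± 0.38 (limma adjusted p = 0.0173). The ANGPTL4 call was lost in 6 of 13 other settings. SDC2, a heparan sulfate proteoglycan, differed by 1.10 (limma adjusted p = 0.0558), and 2 of its 7 probes passed. The lipase and this inhibitor thus had their higher values on the same 3 arrays. No probe carried the name of GPIHBP1 or LMF1 in the annotation used.

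Of 11 tested lipoprotein and scavenger receptors, 0 were called in limma and 3 had an unadjusted p under 0.05. The nearest was SCARB2, a lysosomal membrane receptor, at 0.76 ± 0.18 (limma adjusted p = 0.0536). LRP1, which can clear lipase-bound lipoproteins, differed by 0.92 (limma adjusted p = 0.119) and VLDLR, which takes up triglyceride-rich particles, by 0.54 (limma adjusted p = 0.473). CD36, the fatty acid translocase, was above background on 2 arrays and was not tested.

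Of 13 genes of fatty acid binding, entry and activation, 2 rose and 0 fell. Both encode retinoic acid carriers of the same protein family as FABP5. CRABP1 was at -1.19, -1.41 and -1.65 in sham and 0.43, 0.90 and 0.36 in ligated cells, a difference of 1.98 ± 0.23 (limma adjusted p = 0.00697). CRABP2 differed by 1.14 ± 0.23 (limma adjusted p = 0.0343), with 1 of its 2 probes called. The CRABP1 call was lost in 1 of 13 other settings, normexp. The CRABP2 call was lost in 9, among them median centring (limma adjusted p = 0.0649) and the replicate block (limma adjusted p = 0.0633). ACSL1, which activates long-chain fatty acids, differed by 0.31 (limma adjusted p = 0.634).

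Of 9 lipid-sensing nuclear receptors and coactivators, 0 were called in limma and 2 had an unadjusted p under 0.05. PPARD, the receptor to which FABP5 can carry ligands, differed by 1.11 ± 0.37 with overlapping groups (limma adjusted p = 0.117). PPARGC1B, a coactivator, differed by -0.93 (limma adjusted p = 0.140). PPARA differed by -0.74 (limma adjusted p = 0.478), with opposite sign under both normexp settings, and PPARG was above background on 1 array.

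Fatty acid oxidation genes did not pass the test as reported. Of 20 tested genes of mitochondrial and peroxisomal oxidation, 0 were called in limma, 5 had an unadjusted p under 0.05 and 5 had a difference above 0, with a median of -0.25. ECHS1, a hydratase of beta-oxidation, differed by -0.70 (limma adjusted p = 0.0747), and passed with normexp without spots of high local background (limma adjusted p = 0.0316). PDK4, the kinase that restrains glucose oxidation, differed by -1.51 (limma adjusted p = 0.0885).

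In triglyceride storage and lipolysis, 1 of 13 genes rose. G0S2, an inhibitor of adipose triglyceride lipase, was at 0.72, 1.11 and 1.32 in sham and 2.93, 2.81 and 3.90 in ligated cells, a difference of 2.16 ± 0.34 (limma adjusted p = 0.0168). PLIN2, which coats lipid droplets, differed by 0.56 with overlapping groups (limma adjusted p = 0.368). In fatty acid and cholesterol synthesis, 1 of 14 genes rose: FADS2, a desaturase, by 1.13 ± 0.23 (limma adjusted p = 0.0344). The FADS2 call was lost in 9 of 13 other settings, among them median centring and the replicate block, and the G0S2 call in 4.

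Cholesterol efflux and lysosomal lipid handling held 5 of the 10 calls, from 18 tested genes. PLTP, which moves phospholipid between lipoproteins, rose by 1.74 ± 0.24 (limma adjusted p = 0.0111). CH25H, which makes 25-hydroxycholesterol, rose by 1.92 ± 0.32 and ABCA1, the cholesterol exporter, by 1.57 ± 0.26 (limma adjusted p = 0.0185 and 0.0186). APOB rose by 1.48 on the 1 of its 7 probes that could be tested (limma adjusted p = 0.0220), and LIPA, the lysosomal acid lipase, by 0.84 (limma adjusted p = 0.0488). The LIPA call was lost in 11 of 13 other settings, among them quantile normalisation (limma adjusted p = 0.0783) and median centring (limma adjusted p = 0.115). The calls of CH25H, ABCA1 and APOB were each lost in 6 of the 13 settings and that of PLTP in 5. APOE differed by 0.07 (limma adjusted p = 0.908), and its sign changed in 6 of 13 other settings.

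**Figure D4:**
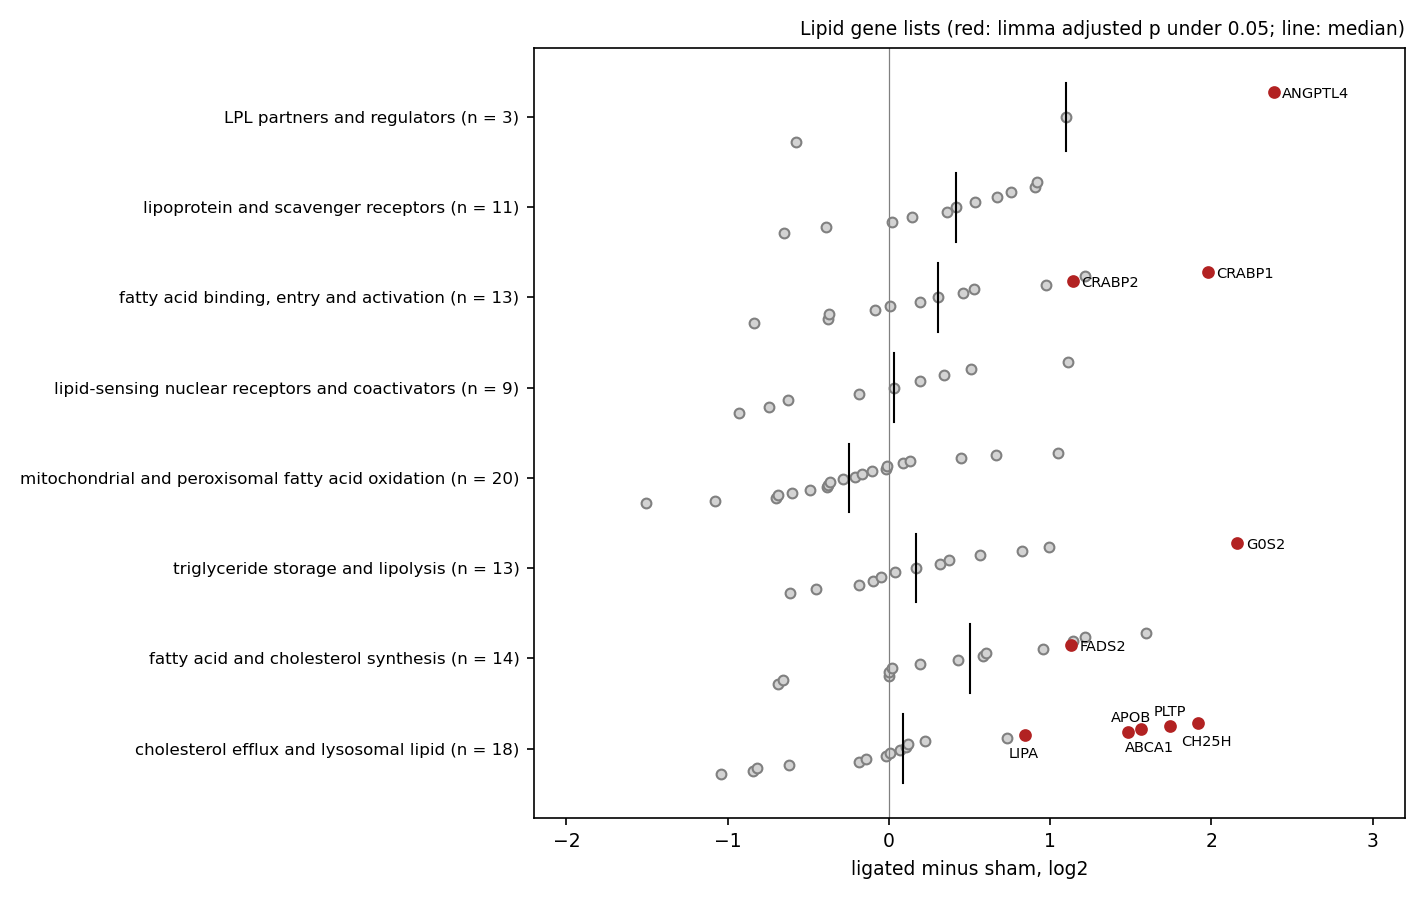
Difference between ligated and sham cells (log2) for each of the 101 tested genes of the 8 lipid lists, 1 point per gene, without FABP5 and LPL; red points were called by limma at an adjusted p under 0.05 and black lines are list medians. The 10 red points all lie to the right of 0, and the oxidation list has its median at -0.25.

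Cells other than smooth muscle could contribute FABP5 or LPL to these preparations, so their markers were measured. Among adipocyte markers, ADIPOQ was above background on no array, and the summed signal of the 2 tested genes was 0.62 to 0.89 in sham and 0.71 to 0.96 in ligated cells, as multiples of the 75th percentile. FABP4, also on that list, was not tested. It was above background in 4 ligated readings, and its probes differed by 1.29 to 1.95 on signals near the background. Of 11 monocyte and macrophage markers 0 were called in limma as reported, 2 had an unadjusted p under 0.05 and 8 had a difference above 0. Their sum was 12.01 to 29.5 in sham and 12.2 to 44.7 in ligated cells, and the groups overlapped. In this list 2 genes rose with array weights and 1 rose with the filter on all 6 arrays. Of 6 endothelial markers 0 were called in limma, with 0 at an unadjusted p under 0.05, and the sums overlapped.

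The fibroblast and meningeal list had its higher sums on the same arrays as the pair. Of 9 tested, 5 rose and 4 were not called, with 7 at an unadjusted p under 0.05. COL1A2 rose by 1.74 (limma adjusted p = 0.0102) and COL3A1 by 1.31 (limma adjusted p = 0.0117). These collagen genes were the brightest of the list, so its sum leans on them. Whether fibroblasts or smooth muscle cells made them was not tested. The sum was 796 to 892 in sham and 1821 to 2026 in ligated cells. The count that rose was 3 without sham 2 or with sham 2 and sham 3 averaged, 2 without sham 3 and 0 in limma with normexp. It was 5 with normexp without spots of high local background and 7 with array weights. It was 4 with median centring, no filter or the replicate block, and 4 without ligated 1 or ligated 2. Of 11 contractile genes 2 fell, SMTN and DES, and 0 rose. In this list 7 had an unadjusted p under 0.05 and 1 had a difference above 0, with a median of -1.01. The count that fell was 0 in limma with normexp. It was 1 with quantile normalisation, the deposited table, the replicate block or without sham 1, sham 2, sham 3, ligated 1 or ligated 3. Median centring gave 3, as did trend and robust variances. Array weights, the filter on all 6 arrays and normexp without spots of high local background each gave 4. The summed contractile signal was 1349 to 2241 in sham and 573 to 1378 in ligated cells. Of 5 striated muscle genes 1 fell, CKM, a call that was also lost with normexp. With normexp without spots of high local background, 1 striated muscle gene fell. Of 6 neutrophil genes 1 rose, MMP9 by 3.22 (limma adjusted p = 0.0174), a call lost with normexp and without sham 2, sham 3 or ligated 2. In the normexp form without spots of high local background, 1 neutrophil gene rose. Both tested glial genes, S100B and ALDH1L1, were lower on every ligated array (limma adjusted p = 0.0546 and 0.0678), with sums of 0.61 to 0.80 in sham and 0.35 to 0.42 in ligated cells. Of 2 epithelial genes KRT19 differed by 3.57 (limma adjusted p = 0.0558). Of 10 lymphocyte, 3 erythroid and 2 neuronal genes 0 were called in limma as reported, with 0 at an unadjusted p under 0.05. Without ligated 3, however, all 3 erythroid genes fell. Their sum was 135 to 274 in sham cells and 20.0, 22.8 and 428 on ligated 1 to 3. With array weights 1 lymphocyte gene fell, and 1 fell without sham 1. The part of such shifts in the FABP5 and LPL values was not tested, and in bulk RNA a change in the share of a cell type cannot be told apart from a change in RNA per cell.

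**Figure D5:**
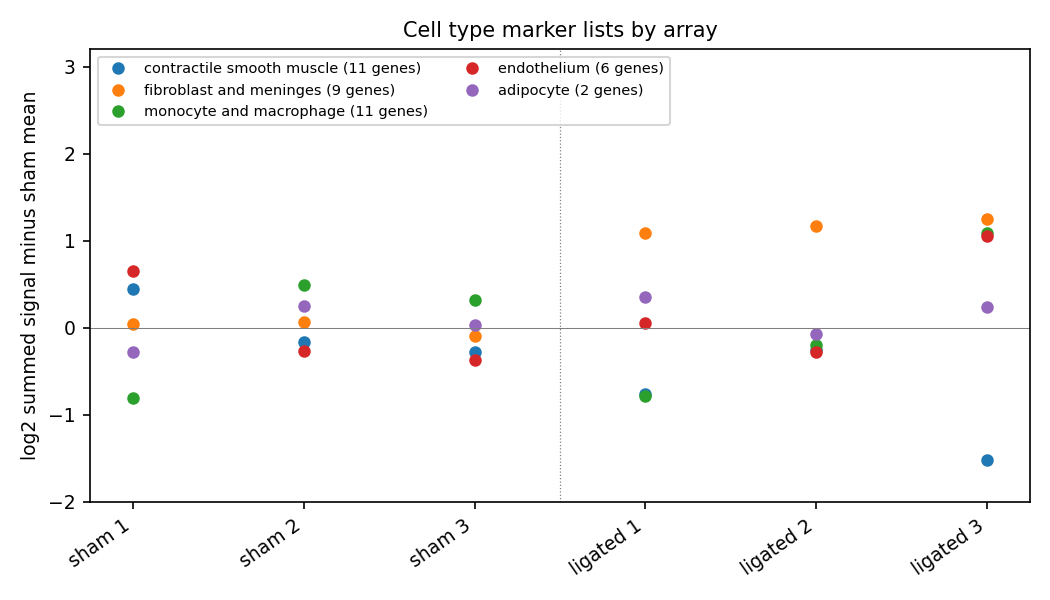
Summed signal of 5 cell type marker lists on each array, on the log2 scale and relative to the mean of the sham arrays for that list, 1 point per list and array. Of these 5, only the fibroblast and meninges list lies higher on all 3 ligated arrays than on all 3 sham arrays.

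Over the 6 arrays, FABP5 and LPL followed each other with a Pearson r of 0.998, and FABP5 was the second closest of 6650 genes to LPL. The genes nearest to FABP5 were PAPSS2, which makes the sulfate donor for proteoglycans (r = 0.999), TNFAIP6, a hyaluronan-binding protein (r = 0.997), and the cell division genes MCM4 and TPX2. Those nearest to LPL after PAPSS2 and FABP5 were TPX2, the cytokine IL18 and the chemokine GRO-A. These values describe 6 points that share the group difference and the slides, and nothing further is read from them.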

How the data were processed

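Total RNA from 3 sham and 3 ligated preparations was amplified, labelled with Cy3 and hybridised, per the labels' protocols. The deposited scanner files hold spot intensities as processed by Agilent Feature Extraction 10.7, per the submitters' processing notes, with other columns, the deposited flags for signal well above background, outlier and saturated spots, per the file headers. The deposited value table holds log2 values; their normalisation was not stated in the sources used here. Outlier spots were left out, repeated spots averaged, and log2 processed signal was taken minus the 75th percentile of the array. Probes well above background on at least 3 of 6 arrays were fitted with limma 3.58.1 in R 4.3.3 (two-sided, Benjamini-Hochberg over 27410 probes, threshold 0.05), a fit that was tested on simulated data. A gene is represented by its tested probe of highest mean signal. Of 43603 probes, 22559 had 1 symbol through the files and the RefSeq gene table of assembly mOryCun1.1, 65 had several and 20979 had none; coordinates are those of the files on oryCun2.

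FABP5, LPL and the gene lists were chosen with earlier results of these data known. From each lipid list up to 4 called genes with the smallest p are named, or up to 2 where none was called, together with genes chosen for their roles; SDC2 was added after its values were seen. The alternatives are background correction, normalisation, filters, array weights, a replicate or scan-day term, averaging of sham 2 and sham 3, and leaving out each array; setting dim sham arrays at a bound and reading each FABP5 probe alone were chosen after seeing the data. A slide term could not be fitted, since slide and group were the same. Proteins and promoters were not analysed here, and 1 gene that the likeness rule names is not reported here.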

Additional observations from a re-analysis of the deposited data

How the results depend on the processing

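FABP5 and LPL were higher in ligated cells in all 23 and 19 alternatives run. These are not independent checks, and several could not move the difference. The replicate block and the setting with no filter returned the reported differences, and scan day returned those without sham 3. The mean and median over probes could not move LPL, which has 1 probe, and the single FABP5 probes share their sequence. Normexp gave 2.26 and 1.41, and normexp without spots of high local background 3.08 and 2.09; by its construction the added offset pulls dim signals together. Leaving out 1 array gave 3.49 to 3.89 for FABP5 and 4.51 to 5.12 for LPL. LPL could not be given with the filter on all 6 arrays.

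The 2290 called probes became 0 with normexp in limma (615 at an unadjusted p under 0.05, against 7498), 1524 with no filter, 6098 with array weights, 552 with scan day (which sets sham 3 aside), 595 with sham 2 and sham 3 averaged, and 552 to 2269 without 1 array (lowest without sham 3). Called lipid genes, 10 as reported, were 0 with normexp in limma (5 at an unadjusted p under 0.05), 16 with normexp without high-background spots, 28 with array weights, 1 with scan day, 1 with the averaged arrays, and 1 to 13 without 1 array: 1 without sham 2 or sham 3, 3 without ligated 1, 2 without ligated 2. The share of called probes that were higher was 68.3% as reported, 52.2% with median centring, 55.6% with normexp without high-background spots, 54.9% with array weights, 78.6% with no filter, 81.8% with the replicate block, 86.6% with the averaged arrays and 87.3% with scan day. The median over all probes moved to 0.21 with normexp and to -0.19 with median centring.

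With the replicate number as a block, FABP5 stayed at 3.68 and LPL at 4.82, 1295 probes and 7 lipid genes were called. Deviations of same-numbered arrays correlated at 0.43, -0.57 and 0.58, so the numbers were not taken as pairs.

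Signs turned for ACSL1 (-0.0691 without sham 1, from -0.0691 to 0.52 over the arrays left out), PPARA (0.44 with normexp, 0.0450 with its second form) and APOE (-0.0246 with normexp, -0.13 with median centring, -0.0593 with the averaged arrays, and from -0.16 without ligated 2 to 0.32 without sham 1, being below 0 without sham 2 or sham 3 too). The cause was not tested.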

Other observations

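The opposite-strand signal at LPL was set beside the rest of the array. Of 10316 probes without a gene name that the files mark as unknown, 185 were the reverse complement of a named probe over at least 30 bases. In 178 of these pairs the named probe was above background on all 3 ligated arrays, and in 89 of them the unnamed probe was too. A further 225 such probes shared such a run with a named probe on the same strand. Whether opposite-strand probes read separate transcripts was not tested.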
